A study of Ovis aries with 8 samples.

Results

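*GNRH1*, *TAC3*, *NPVF* and *LHCGR* are genes of the reproductive axis, and they were followed here in the hypothalamus of 8 sheep fetuses. The members were chosen by name on the array: every probe whose design name or description names one of these genes was taken. This gave 4 genes of 837 that could be named, and 7 probes of 15008 on the array. *GNRH1*, *NPVF* and *LHCGR* had a pair of probes each and *TAC3* had 1. The *LHCGR* probes carry the older design name LHR, which the RefSeq gene table lists as a synonym of *LHCGR*. Estradiol-3-sulfate is a conjugate of estradiol that steroid sulfatase can convert back to the active hormone. It was given to 4 fetuses at 1 mg per day into the lateral cerebral ventricle from an osmotic mini-pump. The other group of 4 fetuses were their twins, which the treatment protocol describes as infused with saline and the design text as untreated; they are called vehicle here. Twins were assigned to the groups at random, per the design text. The pump was placed between gestational days 120 and 127, and hypothalami were collected between days 130 and 134. The design text gives an infusion of 7 to 12 days, the protocol one of 7 to 10 days. The labels used here do not give the sex of a fetus or which replicates were twins.

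Gonadotropin-releasing hormone (GnRH) is made by a small, scattered population of hypothalamic neurons and released to the pituitary, where it drives secretion of the gonadotropins LH and FSH. GnRH neurons carry little estrogen receptor alpha themselves, and the steroid reaches them largely through other neurons, among them the arcuate cells that make kisspeptin and neurokinin B. RFamide-related peptides, the mammalian counterparts of avian gonadotropin-inhibitory hormone, come from neurons of the dorsomedial region. LH acts on its receptor in the gonads, and the receptor is also known from other tissues, including parts of the brain. In a whole hypothalamus, fewer cells of a type and less RNA per cell cannot be told apart.

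The probe sequences are shown because they set what each signal can be read as. The probes of *GNRH1* are the same stretch of the coding sequence moved by a few bases, so that they check the measurement of 1 stretch and are not independent of each other. Of their 60 bases, 58 are shared, and these are in capitals.
GNRH1, first probe: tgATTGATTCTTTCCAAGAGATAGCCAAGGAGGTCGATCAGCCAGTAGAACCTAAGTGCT
GNRH1, second probe: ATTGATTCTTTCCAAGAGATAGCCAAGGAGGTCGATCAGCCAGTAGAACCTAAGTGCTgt

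The probe of *TAC3* covers the codons for the tachykinin core of neurokinin B, the part that binds its receptor, which are in capitals.
TAC3: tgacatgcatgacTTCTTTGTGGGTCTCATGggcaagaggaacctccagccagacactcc

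The probes of *NPVF* share 59 bases. The capitals mark the codons of an RFamide end followed by the amidation and cleavage signal.
NPVF, first probe: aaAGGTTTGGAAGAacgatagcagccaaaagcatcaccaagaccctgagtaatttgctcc
NPVF, second probe: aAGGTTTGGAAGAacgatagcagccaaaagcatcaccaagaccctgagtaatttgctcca

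The probes of *LHCGR* share no stretch, so here each probe reads its own part of the transcript.
LHCGR, first probe: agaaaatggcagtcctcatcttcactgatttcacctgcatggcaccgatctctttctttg
LHCGR, second probe: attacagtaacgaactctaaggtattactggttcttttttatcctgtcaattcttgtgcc

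Values below are log2 of the processed intensity of a probe relative to the 75th percentile of its own array, so that 0 is the level of that percentile. Differences are estradiol sulfate minus vehicle on the same log2 scale, from limma, with Benjamini-Hochberg adjustment over 11748 probes. The percentile itself ran from 1597.3 to 2282.3 in the estradiol sulfate group and from 981.5 to 1632.9 in the vehicle group. The share of probes flagged as well above background ran from 67.8% to 83.1%, and the fetus with the lowest share was vehicle replicate 4. All arrays lay on 1 slide, and each slide column held 1 group, so column and treatment cannot be told apart. The median difference over all probes tested was 0.04. No probe passed an adjusted p of 0.05 (0.0% of those tested), and 1077 passed an unadjusted p of 0.05 (9.17%). So 0 of the 4 genes passed the adjusted threshold, and *NPVF* alone of the 4 passed the unadjusted one in this model. The groups overlapped for all 4 genes, whereas 5.97% of probes tested had groups that did not overlap (3.29% higher and 2.68% lower with estradiol sulfate).

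*GNRH1*, which encodes the GnRH precursor, differed more between fetuses than between the groups. In the estradiol sulfate group the first probe read -8.19, -3.91, -3.99 and -5.11 in replicates 1 to 4. In the vehicle group it read -2.87, -5.91, -4.57 and -1.50. The signal was not well above background in estradiol sulfate replicate 1 and vehicle replicate 2, so 3 fetuses of each group gave a measured value. The -8.19 is a surrogate, which the extraction software puts in for a signal near background. The groups overlapped. Vehicle replicates 1 and 4 were above every infused fetus, and all 4 infused fetuses were under the median of the controls. The order of estradiol sulfate replicate 1 and vehicle replicate 2 was not measured, since neither was well above background.

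The mean was -5.30 ± 2.00 (SD, n = 4) with estradiol sulfate and -3.71 ± 1.93 (SD, n = 4) with vehicle, which puts vehicle 3.01-fold brighter on average with the dim values taken as deposited. That fold includes the 2 values not well above background. With these raised to the lowest signal well above background on their arrays it was 2.23-fold, a difference of -1.15. With normexp background correction the difference was -0.89 with the 75th percentile and -0.78 with quantile normalization. The difference of -1.59 ± 1.12 (SE) was smaller than the SD within either group, and its 95% interval ran from -4.12 to 0.95. The adjusted p from limma was 0.717, and an exact permutation test of the group means gave p = 0.314 (two-sided). The smallest p that 4 against 4 can give in that test is 0.0286. The second probe gave -1.42 ± 1.17 (SE; adjusted p = 0.767, limma). Leaving out estradiol sulfate replicate 1 changed the difference to -0.62, leaving out vehicle replicate 4 to -0.85 and leaving out vehicle replicate 2 to -2.32.

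The spread of *GNRH1* was among the widest on the array. Its SD within groups was 1.97 with the dim values as deposited, larger than that of 99.8% of probes tested. With dim values of all probes raised to the lowest signal well above background, it was 1.39, larger than that of 99.6% of probes. The SD of the estradiol sulfate group alone was then 0.95. Among the 6 fetuses with a measured value, the signal covered a 12.2-fold range. The probes differed by 0.14 or less in 7 of the fetuses and by 0.59 in vehicle replicate 2, where neither was well above background. One of the 7 was estradiol sulfate replicate 1, where both hold a surrogate value, so their closeness there is not a measurement. The spread between fetuses was thus far wider than the spread between probes of the same stretch.

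*TAC3* encodes neurokinin B, a peptide that excites its receptor on neighbouring arcuate neurons. It was well above background in all 8 fetuses and no difference between the groups was detected, within a wide interval. The values were -4.16, -2.04, -2.45 and -2.30 in estradiol sulfate replicates 1 to 4. In vehicle replicates 1 to 4 they were -2.69, -4.28, -2.55 and -2.06. Most fetuses lay close together, and 1 fetus of each group stood low: estradiol sulfate replicate 1 and vehicle replicate 2. These are also the fetuses in which *GNRH1* was not well above background. The means were -2.74 ± 0.97 (SD, n = 4) and -2.90 ± 0.96 (SD, n = 4). The difference was 0.16 ± 0.56 (SE), with a 95% interval from -1.10 to 1.41 that leaves room for a difference in either direction (limma adjusted p = 0.965; exact permutation p = 0.657, two-sided). Its sign turned with the fetus left out, from -0.30 without vehicle replicate 2 to 0.63 without estradiol sulfate replicate 1.

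The related tachykinin gene *TAC1*, which encodes substance P and neurokinin A, showed none of this spread. It ranged from 2.14 to 2.73 over the 8 fetuses, and it differed by 0.29 ± 0.15 (SE; limma adjusted p = 0.62). The SD of *TAC3* within groups was 0.96, larger than that of 98.3% of probes tested.

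*NPVF* encodes the precursor of the RFamide-related peptides, which act to restrain the gonadotropic axis. It was brighter on average in the vehicle group and had the smallest p of the 4 genes. The values were -2.45, -1.37, -0.66 and -1.75 in estradiol sulfate replicates 1 to 4. In vehicle replicates 1 to 4 they were 0.65, -0.63, -1.52 and 0.10. Of the controls, 3 were above every infused fetus on this first probe, vehicle replicate 2 only narrowly, at -0.63 against -0.66. On the second probe 2 controls were, since vehicle replicate 2 read -0.82 and estradiol sulfate replicate 3 read -0.54. Vehicle replicate 3 fell among the infused fetuses on both probes, so the groups overlapped. Over the 8 fetuses, all well above background, the signal covered an 8.58-fold range, against 4.73-fold for *TAC3*.

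The means were -1.56 ± 0.75 (SD, n = 4) with estradiol sulfate and -0.35 ± 0.94 (SD, n = 4) with vehicle, a 2.31-fold brighter signal in the controls. The difference was -1.21 ± 0.49 (SE), with a 95% interval from -2.32 to -0.09. The unadjusted limma p was 0.0365, and 2.93% of all probes tested had an unadjusted p under 0.05 and were lower. The adjusted p was 0.535, so the difference did not pass, and the exact permutation test gave p = 0.114 (two-sided). The second probe gave -1.21 ± 0.50 (SE; limma adjusted p = 0.537) and differed from the first by 0.33 or less in every fetus. The difference was -0.87 without vehicle replicate 1 and -1.60 without vehicle replicate 3.

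*LHCGR*, the receptor for LH, was close to the limit of the measurement. The first probe read -4.55, -5.62, -4.79 and -5.05 in estradiol sulfate replicates 1 to 4, all well above background. In vehicle replicates 1 to 4 it read -5.04, -6.33, -5.53 and -5.35, and it was well above background in replicate 1 alone. Estradiol sulfate replicates 1 and 3 were above every control, vehicle replicate 2 was below every infused fetus, and the rest overlapped.

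The means were -5.00 ± 0.46 (SD, n = 4) and -5.56 ± 0.55 (SD, n = 4), a 1.47-fold brighter signal with estradiol sulfate. The difference of 0.56 ± 0.30 (SE) had a 95% interval from -0.13 to 1.24 (limma adjusted p = 0.632; exact permutation p = 0.229, two-sided). *LHCGR* met the filter of at least 4 arrays through the infused group, with 4 arrays well above background against 1 in the vehicle group. The vehicle mean therefore rests mostly on values not well above background, and the 1.47-fold is not a measured ratio. The lowest signal that was well above background differed between arrays: it lay between -6.38 and -5.50 in the estradiol sulfate group and between -5.68 and -4.67 in the vehicle group. A signal of the same relative level could therefore pass on an infused array and not on a control array. With values not well above background raised to that limit, the *LHCGR* difference was 0.09. The second *LHCGR* probe was not well above background on any array and was not tested.

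**Figure D1:**
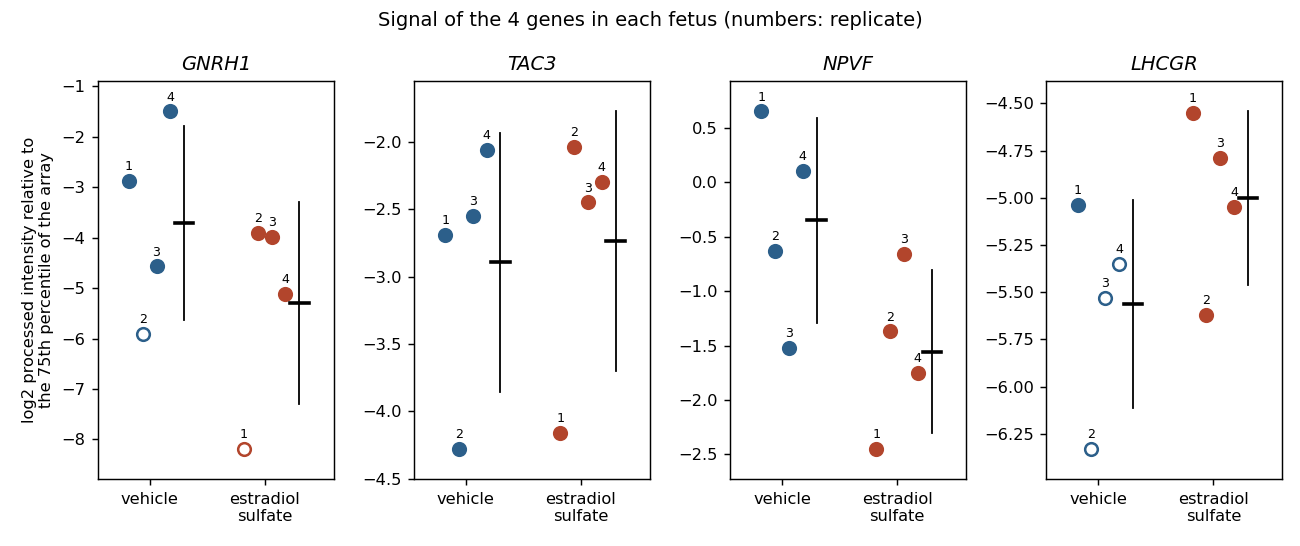
Log2 processed intensity relative to the 75th percentile of the array (vertical axis, its own range in each panel) for *GNRH1*, *TAC3*, *NPVF* and *LHCGR* in each fetus. Points are fetuses numbered by replicate, open where the probe was not well above background, and the bars give mean and SD of 4 fetuses; the groups overlap in every panel, and estradiol sulfate replicate 1 and vehicle replicate 2 are lowest for *GNRH1* and *TAC3*.

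Levels cannot be set against each other between genes on this array, since each probe has its own response, but the order of fetuses within a gene can be read. For *GNRH1* the highest fetus was vehicle replicate 4 and for *NPVF* vehicle replicate 1, whereas for *TAC3* the highest was estradiol sulfate replicate 2, with vehicle replicate 4 just under it. Each fetus was measured on 1 array, so neighbouring fetuses in an order have no error of their own. For *LHCGR* the highest was estradiol sulfate replicate 1, the fetus that was lowest for *NPVF*, next to lowest for *TAC3* and not well above background for *GNRH1*.

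Of the 6 pairs of these genes, *GNRH1* ran most closely with *TAC3* and with *NPVF* across the 8 fetuses. Pearson's r was 0.78 for *GNRH1* and *TAC3* (exact permutation p = 0.0189, adjusted over the 6 pairs 0.0567), with Spearman's rho of 0.62 (exact permutation p = 0.115, adjusted 0.345). Without the fetuses farthest from the median of *GNRH1*, estradiol sulfate replicate 1 and vehicle replicate 4, r was 0.60. Without estradiol sulfate replicate 1 and vehicle replicate 2, the pair low for both genes, it was 0.25, so that relation rests on them. With dim values raised to the lowest signal well above background, it was 0.66.

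For *GNRH1* and *NPVF*, r was 0.79 (exact permutation p = 0.0189, adjusted 0.0567) and rho was 0.71 (exact permutation p = 0.0576, adjusted 0.345). It was 0.55 without estradiol sulfate replicate 1 and vehicle replicate 4, 0.83 without estradiol sulfate replicate 1 and vehicle replicate 2, and 0.79 with dim values raised. With the group means removed, r was 0.91 for *GNRH1* and *TAC3* and 0.74 for *GNRH1* and *NPVF*. Both include the *GNRH1* values that were not well above background. They were not taken with dim values raised or with fetuses left out. A group holds 4 fetuses, too few for a value within it. The other 4 pairs had r between -0.22 and 0.28. No pair passed the adjustment.

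The closest named genes were taken by the highest r over the 8 arrays among 668 genes, as a description. For *GNRH1* they were *PHF14* (r = 0.93), *CAPN3* (0.90) and *ATOX1* (0.89), and *NPVF* and *TAC3* stood at ranks 18 and 22. For *TAC3* they were *FZD2* (0.89), *PTGS2* (0.87) and *JUND* (0.84), with *GNRH1* at rank 11. For *NPVF* they were *IGFBP4* (0.85), *ATP5PO* (0.85) and *DIRAS3* (0.82), with *GNRH1* at rank 4. For *LHCGR* they were *COL3A1* (0.92), *CLEC4E* (0.91) and *NOX1* (0.89), of which *COL3A1* and *NOX1* were well above background on 4 arrays and *CLEC4E* on 6. The points of each r share the same 8 arrays and the same scaling.

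**Figure D2:**
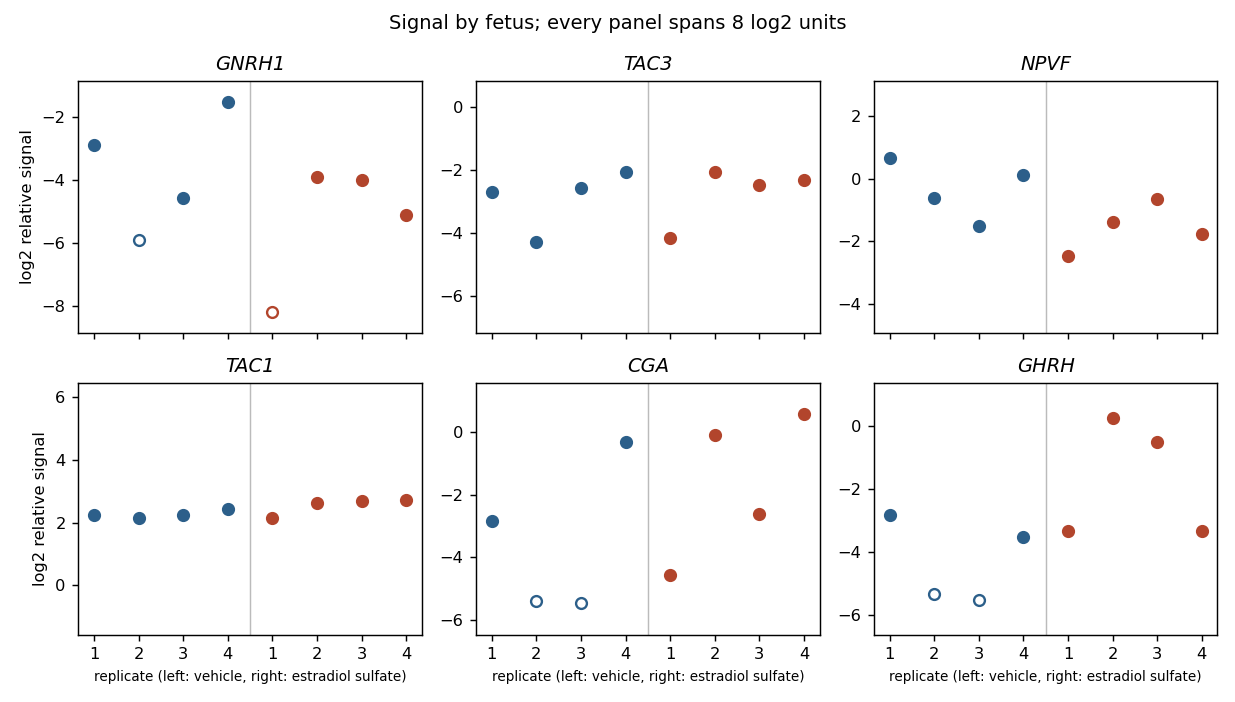
Log2 signal relative to the 75th percentile of the array (vertical axis, 8 log2 units in every panel) by replicate (horizontal axis, vehicle left in blue, estradiol sulfate right in red) for 6 genes, 1 point per fetus, open where not well above background. *GNRH1* and *TAC3* are low in vehicle replicate 2 and estradiol sulfate replicate 1, *TAC1* stays between 2.14 and 2.73, and *CGA* and *GHRH* are low in vehicle replicates 2 and 3.

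The same fetuses also differed in genes that mark parts of the dissected block. *CGA*, which encodes the alpha subunit shared by LH, FSH and TSH and is made in the pituitary and its stalk, read -4.55, -0.12, -2.63 and 0.55 in estradiol sulfate replicates 1 to 4. In vehicle replicates 1 to 4 it read -2.83, -5.38, -5.46 and -0.34, not well above background in replicates 2 and 3. The groups overlapped, and the difference of 1.82 ± 1.37 (SE) did not pass (limma adjusted p = 0.746). Vehicle replicate 4, with the highest *GNRH1*, was the highest control for *CGA*. Estradiol sulfate replicate 1 was the lowest infused fetus for both, with *GNRH1* not well above background. Other fetuses did not follow this order. Estradiol sulfate replicate 4 was the highest of all for *CGA*, at 0.55, but its *GNRH1* of -5.11 was the lowest measured value of its group.

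Of 10 pituitary markers 5 were named on the array, 2 of them well above background in every fetus and *FSHB* and *POU1F1* in none. Their summed level, as a multiple of the 75th percentile, was 17.9 to 28.2 with estradiol sulfate and 15.4 to 30.1 with vehicle. *LHB*, which read 3.85 to 4.91 on its brighter probe over the 8 fetuses, made up at least 94.1% of the sum in every fetus. The sum therefore does not show the differences in *CGA*. The other *LHB* probe, also well above background in every fetus, read only -3.27 to -2.66, and why the probes differ was not tested. Peptide genes listed for the arcuate and mediobasal hypothalamus, where *TAC3* neurons lie, summed to 3.30 to 19.5 with estradiol sulfate and 1.37 to 4.59 with vehicle. Of 6 listed, 5 were named: *POMC*, *NPY*, *AGRP*, *GHRH* and *PMCH*, the last not particular to the arcuate. *POMC* led the sum over the 8 fetuses, with at least 30.8% of it in every fetus. *AGRP* and *GHRH* were not well above background in vehicle replicates 2 and 3. Estradiol sulfate replicate 2 had the highest sum, and vehicle replicates 2 and 3 had the lowest, at 1.55 and 1.37. *TAC3* was low in vehicle replicate 2 but read -2.55 in vehicle replicate 3.

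*OXT*, a marker of the magnocellular nuclei, gave 2.45 to 12.9 with estradiol sulfate and 8.49 to 14.8 with vehicle, from 1 of 2 markers. *TTR*, of choroid plexus and ependyma, read -3.14 in estradiol sulfate replicate 1, its lowest fetus, and between -0.90 and 2.66 in the rest. The summed choroid list, at least 91.3% *TTR* in every fetus, from 2 of 4 markers with *AQP1* not well above background in any fetus, was 0.124 to 6.32 and 0.543 to 0.784. Astrocyte markers, 2 of 6 named and at least 93.1% of the sum from *AQP4*, gave 21.0 to 42.9 and 14.5 to 37.9. Endothelial markers, 3 of 5 named and at least 90.2% of the sum from *PECAM1* in every fetus, gave 0.527 to 0.794 and 0.466 to 0.651. Of the others, *FLT1* was well above background in estradiol sulfate replicate 3 alone, and *KDR* was not in vehicle replicates 2 and 4. Of the markers that define the labelled tissue, *OXT*, *POMC* and *NPY* were well above background in every fetus. Markers of neurons in general, other forebrain, thalamus, oligodendrocytes and microglia were not named on the array. The part of these differences in the values of *GNRH1*, *TAC3* and *NPVF* was not tested.

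The wider list of the reproductive axis holds 69 genes, of which 30 were named on the array and 22 could be tested. Of these, 17 were higher with estradiol sulfate and 5 lower, against 58.1% of all probes above 0. Their median difference was 0.16, beside 0.04 for all probes tested. Without the 4 genes described above, 15 of 18 were above 0 and the median was 0.18. No gene of the list passed the adjusted threshold. At an unadjusted p under 0.05 there were 2 higher and 1 lower, the latter *NPVF*, where 6.24% and 2.93% of all probes tested were so. The count above 0 depended on the scaling. It was 15 with quantile normalization, 13 with cyclic loess and 12 with median scaling or the authors' deposited log2 values. It was 16 with normexp background correction and quantile normalization, and 8 with normexp and the 75th percentile. The median over all probes moved as well, to -0.06 with median scaling and the deposited values. The list median was then 0.06 and 0.05. With quantile normalization the medians were 0 for all probes and 0.07 for the list, and with cyclic loess -0.01 and 0.05.

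Among steroid receptors, *ESR2*, which encodes estrogen receptor beta, had the smallest p on the brightest probe of each gene. Its values were -4.01, -4.57, -4.76 and -4.26 in the infused fetuses. The controls had -4.93, -4.72, -4.92 and -4.68, the last of these not well above background. Estradiol sulfate replicate 3 lay among the controls. The difference was 0.42 ± 0.17 (SE; limma p = 0.0376, adjusted p = 0.536; exact permutation p = 0.0857, two-sided). It was -0.03 with normexp background correction and the same scaling, and the gene's other probe was not well above background on any array. *ESR1*, for estrogen receptor alpha, differed by 0.07 ± 0.47 (SE) on one probe and by -0.49 on the other, so the probes disagreed in sign. The progesterone receptor gene *PGR* differed by 0.22 ± 0.17 (SE) on its brightest probe, where the groups overlapped. That probe did not pass (limma adjusted p = 0.753), and it turned below 0 with normexp background correction and the 75th percentile, to -0.05. The other *PGR* probe differed by 0.69. On it the infused fetuses, from -4.64 to -4.31, did not overlap the controls, from -5.38 to -4.85, and 3.29% of probes tested separated in that way. Vehicle replicates 3 and 4 were not well above background on that probe.

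*ACVR2B*, an activin receptor, was the listed gene with the smallest p. Its 4 infused fetuses, from -1.56 to -1.35, did not overlap the 4 controls, from -1.89 to -1.65, and 3.29% of probes tested separated in that way. The difference was 0.27 ± 0.11 (SE; limma p = 0.036, adjusted p = 0.533; exact permutation p = 0.0286, two-sided). This difference stayed above 0 under every setting, from 0.14 to 0.31, but its unadjusted p depended on the scaling. The limma p was 0.0978 with quantile normalization, 0.0963 with cyclic loess and 0.207 with median scaling. With the deposited values it was 0.216, with normexp 0.232 (75th percentile) and 0.245 (quantile normalization), and with array weights 0.0138. The activin and inhibin subunit gene *INHBA* differed by 0.16 ± 0.45 (SE), and *FST*, for the activin-binding protein follistatin, by 0.04 ± 0.19 (SE), a sign that turned under most scalings.

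Of the pituitary hormones, *LHB*, the beta subunit of LH, differed by -0.05 ± 0.26 (SE; limma adjusted p = 0.979), and by 0.14 with quantile normalization. Its other, much dimmer probe differed by -0.11. Prolactin (*PRL*) differed by -0.40 ± 0.24 (SE; limma adjusted p = 0.663). *FSHR*, the receptor for FSH, differed by -0.68 ± 0.40 (SE; limma adjusted p = 0.657) and its second probe was not well above background on any array. *GNRHR*, the GnRH receptor, *FSHB* and *PRLR* were not well above background on any array. The aromatase gene *CYP19A1*, whose product makes estradiol, passed on 1 array, that of estradiol sulfate replicate 2. *KISS1*, *KISS1R*, *TACR3*, *PDYN*, *NPFFR1*, *GPER1* and *INHBB* were not analysed here.

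**Figure D3:**
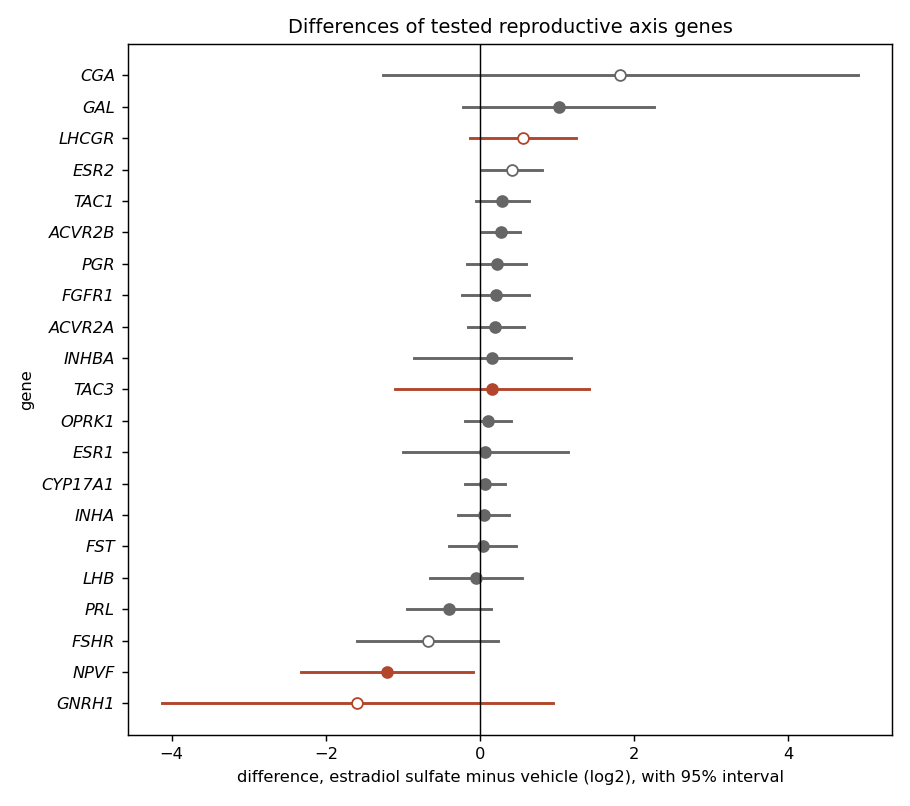
Difference between groups for all but 1 of the 22 tested genes of the reproductive axis (horizontal axis, estradiol sulfate minus vehicle, log2; vertical axis, genes in order of the difference), with the 95% interval from limma. The 4 genes described are in red, open points mark probes not well above background in every fetus, and the intervals of *GNRH1* (-4.12 to 0.95) and *CGA* are the widest while those of *NPVF*, *ESR2* and *ACVR2B* lie on one side of 0.

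Changing the processing kept *GNRH1* and *NPVF* below 0, while *TAC3* and *LHCGR* fell on both sides of it. Over all settings, *GNRH1* ran from -2.32 to -0.62 and *NPVF* from -1.60 to -0.87, with adjusted limma p-values of 0.607 to 0.947 and of 0.335 to 0.837. *TAC3* ran from -0.30 to 0.63 and *LHCGR* from -0.16 to 0.76, with adjusted limma p-values of 0.666 to 0.999 and of 0.401 to 0.966.

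**Figure D4:**
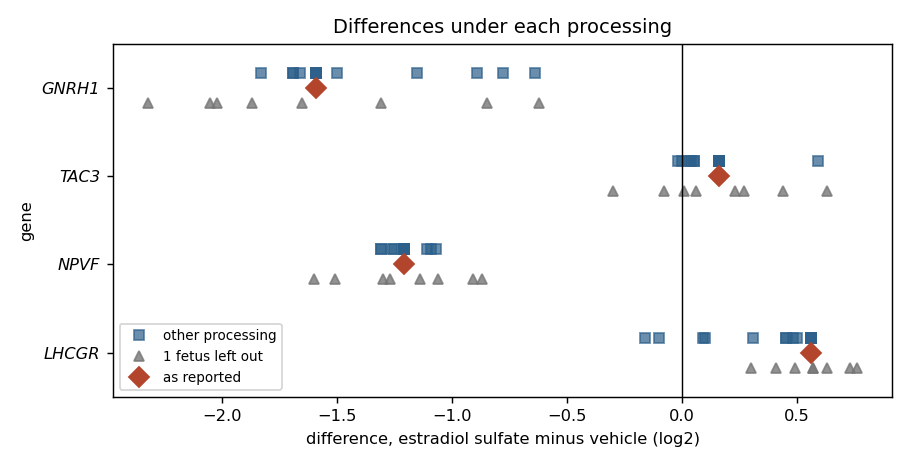
Difference between groups (horizontal axis, estradiol sulfate minus vehicle, log2) for each of the 4 genes (vertical axis) as reported (diamond), under other processing (squares) and with 1 fetus left out (triangles). All values for *GNRH1* and *NPVF* are below 0, and those for *TAC3* and *LHCGR* lie on both sides.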

How the data were processed

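One array per fetus was read for 4 estradiol sulfate and 4 vehicle fetuses, and each fetus was a replicate. Per the file headers, spots were extracted with Agilent Feature Extraction 10.1.1.1 from a 1-colour Cy3 scan, and the deposited processed intensity is background-subtracted and detrended within each array, with a surrogate near background. The authors' deposited log2 values, used as an alternative, differ from log2 of that intensity by a fixed amount on each array (within 0.001, for 99.667% of probes or more). Their column medians ran from 0.0576 to 0.075. How that amount was set is unknown here, while scale and direction are known.

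Control spots and outlier-flagged spots were left out, and spots of a probe were averaged. Log2 intensity minus the array's 75th percentile was compared between groups by limma (version 3.58.1, R 4.3.3; lmFit, then eBayes; no covariate; two-sided). The fit was tested on simulated data. Probes well above background on at least 4 of 8 arrays were kept (11748, with 3260 left out). No probe was saturated, no arrays were identical, and arrays correlated at 0.972 to 0.991 within groups. Precision is limited by the number of arrays. Names came from the design and a RefSeq gene table (ARS-UI_Ramb_v3.0, names only), which named 1346 probes (9.0%): 689 through the accession, 487 through the symbol and the rest through a gene number (125), a synonym (26) or the description (19). The other 13662 probes were tested without a name, and no coordinates are given. A gene is represented by its brightest probe, and *GNRH1* and *NPVF* by the probe their choice names. Other genes were named by rule: key genes of the axis, the 4 listed genes with the smallest p, and 3 genes most like each member. The members, the axis list and the marker lists were chosen with earlier results of these data known. Alternatives were the scaling, the background correction, the filter, the prior, array weights, a replicate block, each fetus left out, the mean over a gene's probes and, chosen after seeing the data, raising dim values to the lowest signal well above background. Same-numbered fetuses are not stated to be twins, so the number was not in the model. The values of 1 gene of the axis list are not reported here; it is included in the counts.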

Additional observations from a re-analysis of the deposited data

Results flagged for a closer look

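*FSHR*, the receptor for FSH, read -5.67 in estradiol sulfate replicate 2, apart from the other infused fetuses of that group, of which the nearest read -5.05. The gap was 0.85 of the range of the 4 fetuses, above Dixon's 95% critical value. Of 36 groups of 4 examined, 1 fetus was set apart in this way, and chance does so in about 1 in 20 groups.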

How the results depend on the processing

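No probe passed an adjusted limma p of 0.05 under any setting run. With 1 fetus left out at a time, the difference ran from -2.32 to -0.62 for *GNRH1*, from -0.30 to 0.63 for *TAC3*, from -1.60 to -0.87 for *NPVF* and from 0.30 to 0.76 for *LHCGR*. *TAC3* turned to -0.02 and *LHCGR* to -0.16 with normexp background correction and the 75th percentile, and *LHCGR* was -0.10 as the mean of its probes. The second *LHCGR* probe holds a surrogate value on every array, so that -0.10 is not a measured difference. *GNRH1* was -0.64 with array weights and -1.15 with dim values raised to the lowest signal well above background, an alternative chosen after seeing the data. *GNRH1* and *LHCGR* have no value under the filter for all 8 arrays. The cause of these changes was not tested.

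The labels do not say whether equal replicate numbers mark twins. Deviations from the group means of same-numbered fetuses correlated at 0.237, -0.014, 0.191 and 0.247. Of the 4 numbers, 3 matched best with their own, so the pairing is unresolved here. With the replicate number as a block, the unadjusted calls of limma changed. *NPVF* went from p = 0.0365 to 0.0783 (difference -1.21, adjusted p = 0.548; exact permutation p without the block 0.114). *LHCGR* went from p = 0.099 to 0.00467 (difference 0.56, adjusted p = 0.401; exact permutation p without the block 0.229). Among the controls *LHCGR* was well above background in vehicle replicate 1 alone. With dim values raised and no block its difference was 0.09. With the block, *GNRH1* differed by -1.59 (adjusted p = 0.69) and *TAC3* by 0.16 (adjusted p = 0.953).

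Of the other genes, the sign also turned for *ESR1* with median scaling (-0.03), the deposited values (-0.04) and array weights (-0.33), and over left-out fetuses from -0.37 to 0.40. *ESR2* (-0.03) and *PGR* (-0.05) turned with normexp and the 75th percentile, and *PGR* (-0.02) with cyclic loess. *LHB* was 0.14 with quantile normalization, 0.13 with cyclic loess and 0.11 with normexp and quantile normalization, and -0.27 to 0.08 over left-out fetuses. *INHBA* ran from -0.18 to 0.56 and *FST* from -0.09 to 0.14 over left-out fetuses. *FST* was -0.05 with quantile normalization, -0.04 with cyclic loess, -0.07 with median scaling and the deposited values, -0.02 with normexp and the 75th percentile, and -0.03 with normexp and quantile normalization.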
